A study of Mus musculus with 6 samples.

Results

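The phosphoinositide kinases, phosphatases and phospholipases of the mouse were followed in whole thymus of miR-181d transgenic mice and wild type mice. The set was given as 56 named genes, chosen by gene symbol in the probe annotation of the array and without use of a threshold on any measured value. It holds 9 PI3K genes, 10 PI4K and PIP kinase genes, 17 phosphatases, 8 phospholipase C and InsP3 receptor genes, 6 inositol phosphate kinases, 4 diacylglycerol (DAG) kinases and 2 enzymes of phosphatidylinositol (PI) synthesis. Of the 56, 52 had at least 1 probe in the annotation, and 43 had a probe detected on at least 3 of the 6 arrays, among 9782 genes with such a probe in all. A probe was called detected where the detection p-value of the scanner, which sets its signal against the negative controls of the same array, was under 0.05.

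Total RNA came from the thymus of 3 mice of the transgenic line Tg-38 and 3 wild type mice, all C57BL/6, and each mouse had an Illumina MouseWG-6 v2 array of its own. Tg-38 mice carry a genomic piece with the precursor of mouse miR-181d in the VA-hCD2 cassette, which drives expression in thymocytes and in T cells of the periphery, and all 3 come from a single line. No treatment was given to either group, no age is given for the single animals, and the study's methods place its mice at a few weeks of age. The labels call the tissue whole thymus and the cells thymocytes. The arrays thus hold thymocytes mixed with epithelium, stroma and other blood cells, and in such bulk RNA fewer cells of a type and less RNA per cell cannot be told apart. No probe of the annotation was listed under miR-181d, so the transgene itself was not checked on these arrays.

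Phosphoinositides are phosphorylated forms of phosphatidylinositol, a membrane lipid, and kinases and phosphatases turn one form into another on the inner face of the membrane. When the T cell receptor of a thymocyte is engaged, PI3K makes the lipid PIP3, which recruits signaling proteins to the membrane, and phospholipase C splits the bisphosphate PIP2 into DAG, which stays in the membrane, and soluble InsP3, which opens calcium channels of the endoplasmic reticulum. Lipid phosphatases remove PIP3, inositol phosphate kinases consume InsP3, and DAG kinases consume DAG. The strength of this signaling is known to take part in the selection of thymocytes.

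The mature miR-181 sequences are shown because miR-181d is what differed by design between the groups. They are from RefSeq on build GRCm38.p6, 5′ to 3′, with the seed (bases 2 to 8) in capitals. The 4 members have the same seed, ACAUUCA. From miR-181d to miR-181b the single substitution within the shared length was U12C, with positions counted from 1 at the 5′ end. The genes of miR-181d and miR-181c neighbour each other on the minus strand of chromosome 8, and those of miR-181a and miR-181b lie together on the plus strand of chromosomes 1 and 2.
miR-181d-5p, chr8:84178759-84178781: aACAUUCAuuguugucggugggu
miR-181c-5p, chr8:84178924-84178945: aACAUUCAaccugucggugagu
miR-181a-5p, chr1:137966468-137966490 and chr2:38852741-38852763: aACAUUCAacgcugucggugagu
miR-181b-5p, chr1:137966650-137966673 and chr2:38853845-38853868: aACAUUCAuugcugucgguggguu

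The arrays were alike in quality. Between 17972 and 18464 probes were detected on the Tg-38 arrays and between 17674 and 18526 on the wild type arrays, and each array correlated with the others at a mean of 0.988 to 0.990 across probes. The median scanner signal before normalization was 129, 126 and 123 on the Tg-38 arrays and 140.7, 132.8 and 129 on the wild type arrays. Scanner signals quoted below carry this difference in brightness. The first principal component (39.4% of the variance) parted the groups, and wild type replicate 2 lay apart on the second (21.7%). Of 18352 probes tested, 202 passed an adjusted p under 0.05 (1.1%), 147 higher and 55 lower in Tg-38. With 1 array left out the count ran from 20 (without Tg-38 replicate 3) to 273 (without wild type replicate 2). Taken by the brightest tested probe of each gene, 1.29% of the genes passed.

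No member of the phosphoinositide set passed the adjusted threshold. The lowest adjusted p among the 43 was 0.092 (limma with Benjamini-Hochberg adjustment over all probes tested), and the differences below are therefore given as values. At an unadjusted p under 0.05, 11 of 43 members (25.6%) stood out, namely Pik3cd, Inppl1, Plcb3 and Plcd1 with a higher level in Tg-38 and Pik3ca, Pik3cg, Pip4k2a, Pip5k1b, Itpr2, Itpka and Ippk with a lower one. The 4 higher members make 9.30% of the set, against 10.6% of all genes tested, and the 7 lower members make 16.3%, against 6.94%. With each array scaled to its median in place of quantile normalization, which moved the median of all probes to -0.14, the split was 1 higher and 14 lower. With 1 array left out at a time there were 1 to 5 higher and 3 to 7 lower, the fewest of both without wild type replicate 1. Of all 18352 probes, 3772 had such a p with median scaling and 2321 to 3497 with 1 array left out, against 3126 in the main fit. The shares of all genes in each direction were not counted for these settings. In Tg-38, 7 of 43 members (16.3%) had all 3 arrays above the wild type arrays, against 14.2% of all genes tested. All 3 were below for 11 of 43 members (25.6%), against 10.5% of all genes tested. The study's own pathway analysis of these arrays had already listed phosphatidylinositol signaling for the genes lower in Tg-38. The larger share of lower members is thus not independent of that result.

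Most differences were small. The log2 fold changes (Tg-38 minus wild type) of the 43 members ran from -0.50 to 0.45 with a median of -0.04, and 26 (60.5%) were below 0, against a median of 0.02 and 47.1% below 0 over all genes tested. The median of the members was -0.21 with each array scaled to its median (-0.14 over all probes tested), 0.01 without Tg-38 replicate 3 and -0.11 without wild type replicate 2. The median size of the change, without its sign, was 0.15 in the set and 0.14 over all genes. The group means moved apart in different directions in the enzyme classes, as the plot of the fold changes shows.

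**Figure D1:**
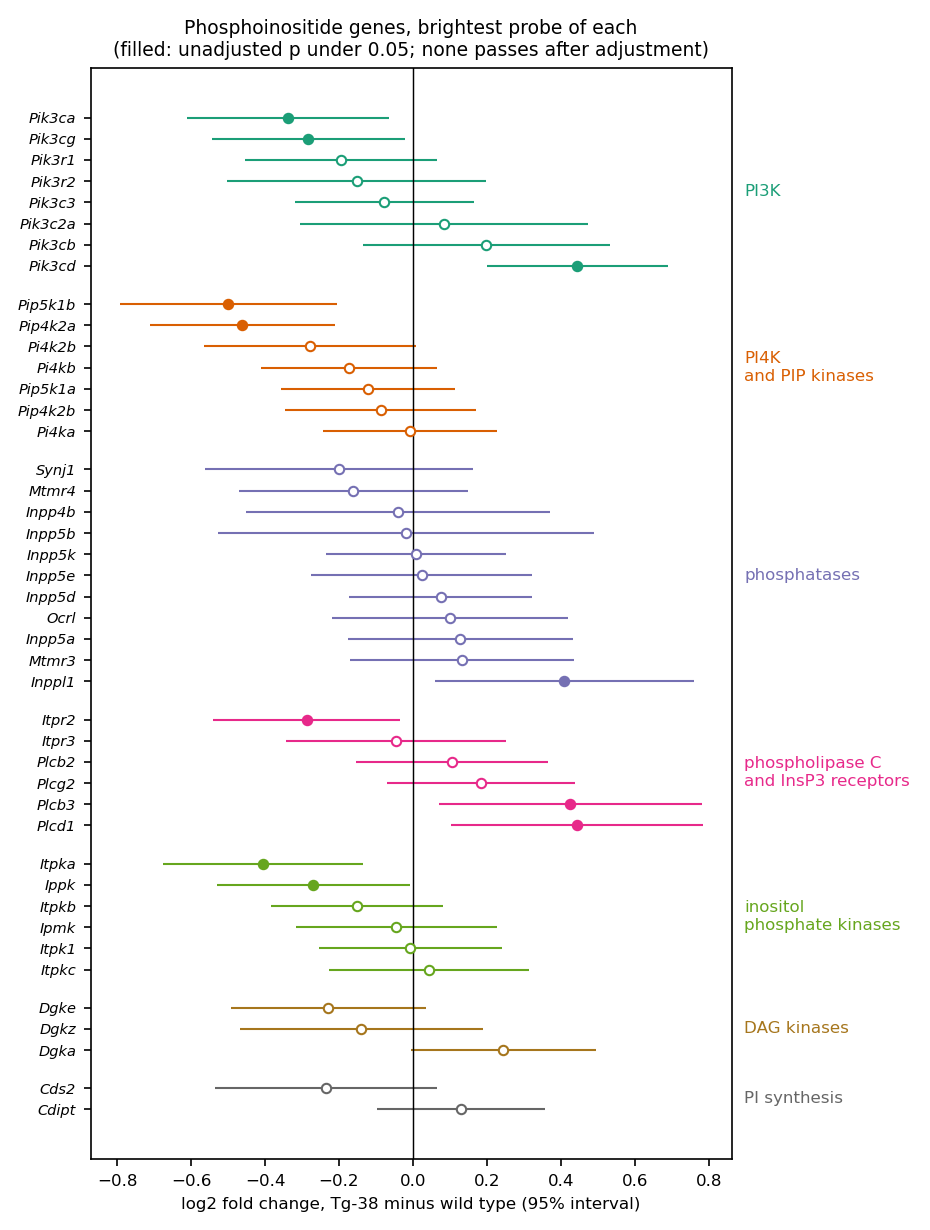
Log2 fold change (Tg-38 minus wild type, horizontal axis) of the brightest tested probe of each of the 43 members, grouped by enzyme class, with the 95% interval of limma as a line and a filled point where the unadjusted p was under 0.05. All 7 PI4K and PIP kinases lie below 0, while Pik3cd, Inppl1, Plcb3 and Plcd1 are the 4 filled points above it.

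Markers of the cell types of the thymus also differed between the groups in their summed normalized signal. Of 12 marker genes of CD4+CD8+ (DP) thymocytes, 10 were tested. Cd4, Cd8b1, Rag1 and Rag2 were among them, while the probes of Cd8a were detected on too few arrays. Of the 10, 8 were below 0, and for 4 of these the unadjusted p was under 0.05. Their summed signal was 51208 to 52246 in Tg-38 and 57889 to 60564 in wild type. The 6 tested markers of mature single-positive thymocytes (of 11) were all above 0, with 2 past the adjusted threshold and sums of 6031 to 7263 in Tg-38 and 4407 to 4680 in wild type.

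The sums were also higher in Tg-38 for 8 of 13 NK and cytotoxic genes (4217 to 5277 in Tg-38, 2985 to 3374 in wild type) and 10 of 16 macrophage and dendritic cell genes (3608 to 4035 in Tg-38, 2503 to 2892 in wild type). Likewise, 9 of 12 epithelial genes summed to 2332 to 2694 in Tg-38 and 1565 to 2114 in wild type, and 5 of 11 endothelial and stromal genes to 721 to 758 in Tg-38 and 582 to 644 in wild type. The sums were lower for 4 of 11 B cell genes (532 to 632 in Tg-38, 716 to 853 in wild type) and 3 of 8 erythroid genes (3875 to 9495 in Tg-38, 10995 to 25586 in wild type). The B cell markers Pax5, Ms4a1 and Cd22 had probes, but none was tested. In these sums the groups did not overlap in any of the 8 lists, but a sum rests mostly on its brightest genes. By the median over the genes of a list, set as log2 signal minus the wild type mean, the groups overlapped for B cell genes (-0.23 to -0.13 in Tg-38, -0.22 to 0.18 in wild type), epithelial genes (0.24 to 0.54 in Tg-38, -0.12 to 0.39 in wild type) and endothelial and stromal genes (-0.01 to 0.44 in Tg-38, -0.05 to 0.13 in wild type). The part of these cell types in the values of the phosphoinositide genes was not tested.

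Among the PI3K genes, which make 3-phosphorylated lipids, the catalytic subunits differed in direction. Pik3cd, the delta catalytic subunit found mainly in leukocytes, read 9.47, 9.29 and 9.40 log2 units on the Tg-38 arrays and 8.99, 8.86 and 8.98 on the wild type arrays. Each Tg-38 array was above each wild type array, with a log2 fold change of 0.45 (SE 0.11, 95% interval 0.20 to 0.69, unadjusted p = 0.00262, adjusted p = 0.0939 by limma). A dimmer probe of Pik3cd had a log2 fold change of -0.17 (unadjusted p = 0.367), so the 2 tested probes of this gene differed in sign. The mean of both probes gave 0.14 (adjusted p = 0.58 by limma), and the brighter probe gave 0.26 with each array scaled to its median (-0.14 over all probes tested). Its scanner signals before normalization, 669.5 to 787.9 in Tg-38 and 588.2 to 747.5 in wild type, overlapped.

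Pik3cg, the gamma catalytic subunit that acts behind G protein-coupled receptors, read 9.70, 9.90 and 9.997 in Tg-38 and 10.13, 10.20 and 10.12 in wild type. The groups did not overlap, the log2 fold change was -0.28 (SE 0.12, unadjusted p = 0.0369, adjusted p = 0.259 by limma), and the dimmer probe gave -0.33. Scaled to the array medians, the brighter gave -0.47, where the median over all probes tested was -0.14. Pik3ca, the alpha catalytic subunit, read 7.03, 6.83 and 6.89 in Tg-38 and 7.42, 7.13 and 7.21 in wild type, again without overlap. Its log2 fold change was -0.34 (SE 0.12, unadjusted p = 0.021, adjusted p = 0.208 by limma), and -0.19 with no background correction.

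Pik3r1, the alpha regulatory subunit that holds and stabilises the catalytic subunits, had the brightest probe of the class. It read 11.42, 11.52 and 11.40 in Tg-38 and 11.63, 11.79 and 11.52 in wild type. The highest Tg-38 array reached the lowest wild type array, and the log2 fold change was -0.19 (SE 0.11, adjusted p = 0.432 by limma), with its 3 probes between -0.23 and -0.10. The others were the beta catalytic subunit Pik3cb (0.20), the beta regulatory subunit Pik3r2 (-0.15), the class II enzyme Pik3c2a (0.08) and the class III enzyme Pik3c3 (-0.08), in log2 fold change, with unadjusted p-values of 0.21 and above. The median of the 8 genes was -0.11. It was -0.27 with each array scaled to its median (-0.14 over all probes tested) and -0.07 with no background correction. It was -0.065 without wild type replicate 1 and -0.061 without wild type replicate 3.

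The kinases that build PIP2 are the PI4-kinases, which make the monophosphate of phosphatidylinositol, and the PIP kinases, which add the second phosphate. All 7 tested members of the set had a log2 fold change below 0 on their brightest probe, with a median of -0.17. With each array scaled to its median it was -0.36, against -0.14 over all probes tested. Their values ran from -0.50 for Pip5k1b to -0.01 for Pi4ka. Outside the set, Pip4k2c had 0.01 with overlap. On each array the class median was taken over the genes, as log2 signal minus the wild type mean of the gene. It was -0.21, -0.22 and -0.23 on the Tg-38 arrays and -0.02, -0.04 and 0.04 on the wild type arrays. The Tg-38 arrays were thus nearly level with each other and below all wild type arrays. The summed DP, B cell and erythroid markers on the Tg-38 arrays were also below all wild type arrays. For the B cell markers the groups overlapped by the median over the genes. A link to this class was not tested.

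Pip4k2a, which phosphorylates the 5-monophosphate, had the brightest probe of the class. It read 12.41, 12.43 and 12.41 in Tg-38 and 13.03, 12.84 and 12.77 in wild type, which were scanner signals of 5240, 5196 and 4986 in Tg-38 and 10004, 8031 and 6847 in wild type. The 3 Tg-38 arrays spread far less (SD 0.013) than the 3 wild type arrays (SD 0.13), and all lay below them. The log2 fold change was -0.46 (SE 0.11, 95% interval -0.71 to -0.21, unadjusted p = 0.00251, adjusted p = 0.092 by limma), or 1.38-fold lower.

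Pip5k1b, a kinase of the 4-monophosphate, had the most negative value of all 43 members. It read 7.43, 7.72 and 7.75 in Tg-38 and 8.24, 7.98 and 8.18 in wild type. There was no overlap, and the log2 fold change was -0.50 (SE 0.13, 95% interval -0.79 to -0.21, unadjusted p = 0.00394, adjusted p = 0.112 by limma), or 1.41-fold lower. Its relative Pip5k1a had values of -0.12 on its brighter and -0.23 on its dimmer probe (unadjusted p = 0.0538 for the dimmer).

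Pi4k2b, a type II PI4-kinase, read 7.49, 7.42 and 7.40 in Tg-38 and 7.65, 7.55 and 7.94 in wild type. The groups lay close to each other without overlap, with a log2 fold change of -0.28 (SE 0.13, unadjusted p = 0.0551, adjusted p = 0.307 by limma). Pi4kb, the kinase of the Golgi, also had no overlap between groups at a log2 fold change of -0.17 (unadjusted p = 0.136), while Pip4k2b had -0.09.

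For Pi4ka, which supplies the plasma membrane, the probes gave different sizes. The brighter probe read 11.37, 11.48 and 11.38 in Tg-38 and 11.44, 11.35 and 11.46 in wild type, with overlap and a log2 fold change of -0.01 (adjusted p = 0.98 by limma). The dimmer probe, singled out after its values were seen, read 8.13, 8.07 and 8.12 in Tg-38 and 8.58, 8.50 and 8.57 in wild type. Its groups were well apart at a log2 fold change of -0.44 (SE 0.10, unadjusted p = 0.00181, adjusted p = 0.0824 by limma), the lowest adjusted p of any probe of the set. Which transcripts of Pi4ka each probe reads was not analysed here.

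**Figure D2:**
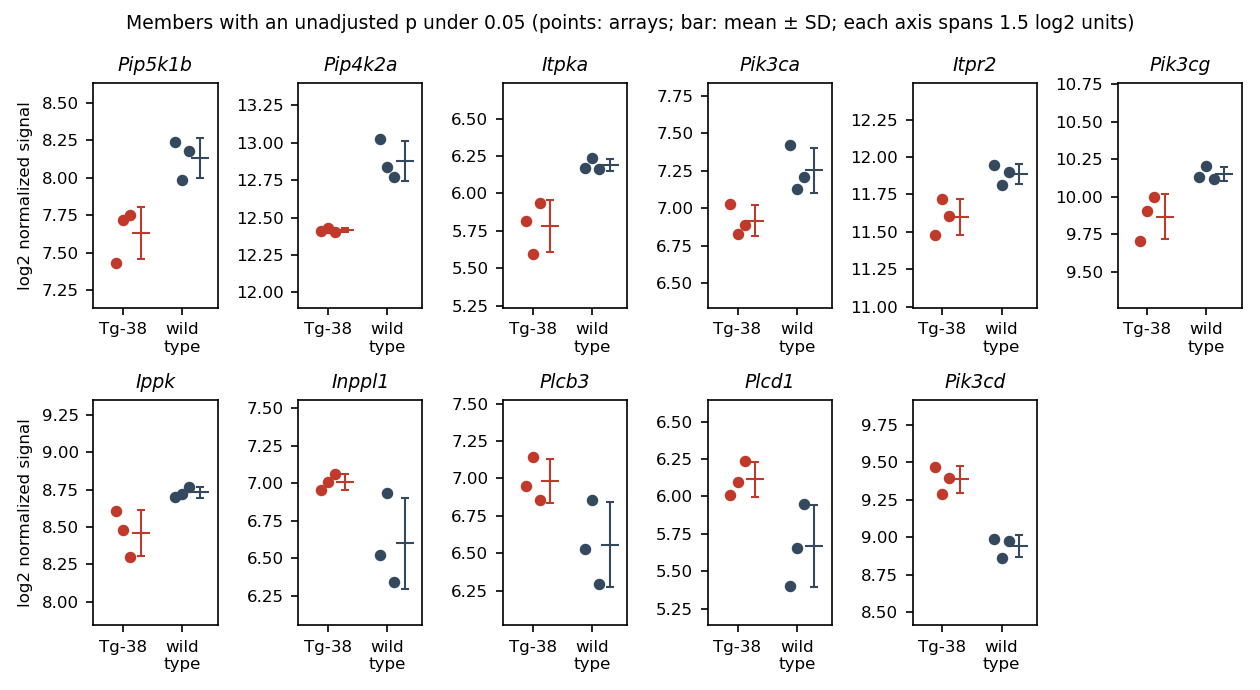
Log2 normalized signal on each array for the 11 members with an unadjusted p under 0.05, with Tg-38 (red) left of wild type (blue), 3 arrays each, and the mean ± SD beside the points. Each panel spans 1.5 log2 units, and in each the 3 Tg-38 points lie on one side of the 3 wild type points.

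The phosphatases stood near 0 as a class. Of 11 tested, 4 had a log2 fold change below 0, the median was 0.02, and the class medians per array were -0.00, 0.20 and -0.04 in Tg-38 and 0.02, -0.01 and 0.00 in wild type. Tg-38 replicate 2 alone stood above the others. Inppl1, or SHIP2, takes the 5-phosphate off PIP3, and was the single member of the class with an unadjusted p under 0.05.

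Inppl1 read 6.96, 7.01 and 7.06 in Tg-38 and 6.52, 6.94 and 6.34 in wild type. Wild type replicate 2 lay just under the Tg-38 arrays and the other wild type arrays well below, with a log2 fold change of 0.41 (SE 0.15, 95% interval 0.06 to 0.76, unadjusted p = 0.027, adjusted p = 0.229 by limma). A second probe of Inppl1 gave 0.57 (SE 0.20, adjusted p = 0.194). Before normalization the scanner signals of the brighter probe were 230.9, 219.7 and 213.4 in Tg-38 and 225.2, 233.5 and 183.1 in wild type, and these overlapped. With no background correction the value was 0.20. Inpp5d, or SHIP1, the enzyme with the same reaction in blood cells, was at 0.08 in log2 fold change (adjusted p = 0.776 by limma).

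Inpp5k, a 5-phosphatase of PIP2 and PIP3, had the brightest probe among the phosphatases. It read 12.05, 12.21 and 12.21 in Tg-38 and 12.08, 12.21 and 12.15 in wild type, which is nearly the same range, with a log2 fold change of 0.01 (SE 0.11, 95% interval -0.24 to 0.25). The 3 dimmer probes of the gene gave -0.10, -0.15 and -0.27, the last with an unadjusted p of 0.0471.

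Mtmr4, a myotubularin that removes the 3-phosphate, read 6.29, 6.10 and 6.00 in Tg-38 and 6.31, 6.09 and 6.48 in wild type, and the groups overlapped (log2 fold change -0.16, adjusted p = 0.597 by limma). Synj1, a phosphatase of endocytosis, was near the detection limit and detected on 1 Tg-38 and 3 wild type arrays. It read 5.06, 5.36 and 4.74 in Tg-38 and 5.14, 5.29 and 5.34 in wild type (log2 fold change -0.20, adjusted p = 0.574 by limma). The remaining Inpp4b, Inpp5a, Inpp5b, Inpp5e, Mtmr3 and Ocrl lay between -0.04 and 0.13 in log2 fold change.

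The phospholipases C of the set had higher group means. All 4 tested enzymes of the set had log2 fold changes above 0, while both tested InsP3 receptors were below it. The median of the 6 was 0.14, and 0.07 without wild type replicate 2. With each array scaled to its median it was -0.03, against -0.14 over all probes tested. Outside the set the direction was mixed, with 0.07 for Plcb4, -0.08 for Plcl2 and -0.16 for Plcz1. The probe of Plcg1 was detected on too few arrays to be tested. Plcd1, an isoform driven mainly by calcium, read 6.01, 6.10 and 6.23 in Tg-38 and 5.40, 5.66 and 5.95 in wild type. There was no overlap, and the log2 fold change was 0.44 (SE 0.15, 95% interval 0.10 to 0.78, unadjusted p = 0.0166, adjusted p = 0.192 by limma). Its scanner signals were low, at 169.7, 165.8 and 165 in Tg-38 and 162.1, 159 and 163.8 in wild type, and the value was 0.16 with no background correction and 0.19 on the authors' processed values.

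Plcb3, an isoform driven by G proteins, read 6.95, 7.15 and 6.86 in Tg-38 and 6.53, 6.85 and 6.29 in wild type. Wild type replicate 2 again came close to the Tg-38 arrays, and the log2 fold change was 0.43 (SE 0.16, 95% interval 0.07 to 0.78, unadjusted p = 0.0242, adjusted p = 0.219 by limma). The scanner signals of 229.9, 231.3 and 198.8 in Tg-38 and 225.8, 226.2 and 180.3 in wild type overlapped before normalization, and with no background correction the value was 0.21. Plcg2, the gamma isoform known chiefly from B and myeloid cells, read 7.68, 7.79 and 7.81 in Tg-38 and 7.65, 7.44 and 7.64 in wild type, narrowly apart (log2 fold change 0.18, adjusted p = 0.45 by limma). Plcb2 had 0.10. The summed macrophage and dendritic cell markers were likewise higher on each Tg-38 array. The summed B cell markers were lower, but by the median over those genes the groups overlapped. The part of these cells in the value of Plcg2 was not tested.

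Itpr2, a calcium channel opened by InsP3, had values below 0 on the 3 of its probes detected on all 6 arrays. The brightest read 11.48, 11.72 and 11.60 in Tg-38 and 11.95, 11.81 and 11.90 in wild type, without overlap. Its log2 fold change was -0.29 (SE 0.11, 95% interval -0.54 to -0.03, unadjusted p = 0.0301, adjusted p = 0.238 by limma), and the other 2 of these probes had -0.39 and -0.17. With each array scaled to its median the brightest had -0.47, where the median over all probes tested was -0.14. A further probe, at -0.53, was detected on 1 Tg-38 and 3 wild type arrays and was thus tested through its detection in wild type. The other tested channel, Itpr3, had -0.05.

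The inositol phosphate kinases, which phosphorylate InsP3 and its products, had a median log2 fold change of -0.10, with 5 of 6 members below 0. The median was -0.22 with the mean of all probes of a gene and -0.15 without wild type replicate 2. With each array scaled to its median it was -0.28, against -0.14 over all probes tested. Their class medians were -0.11, -0.14 and -0.09 on the Tg-38 arrays and -0.03, 0.01 and 0.02 on the wild type arrays, without overlap. Itpka, a 3-kinase of InsP3, read 5.82, 5.60 and 5.94 in Tg-38 and 6.17, 6.24 and 6.16 in wild type. Its log2 fold change was -0.41 (SE 0.12, 95% interval -0.68 to -0.14, unadjusted p = 0.00796, adjusted p = 0.144 by limma), with scanner signals of 161.5, 147.4 and 153.6 in Tg-38 against 199.9, 184.4 and 173.8 in wild type. With no background correction the value was -0.15.

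Itpkb, the 3-kinase that is needed for the positive selection of mouse thymocytes, had the brightest probe of this class. It read 10.02, 9.99 and 10.01 in Tg-38 and 10.25, 10.13 and 10.10 in wild type, so the Tg-38 arrays were tightly together and just below. The log2 fold change was -0.15 (SE 0.10, 95% interval -0.38 to 0.08, adjusted p = 0.498 by limma). The 3 probes of Itpkb detected on all 6 arrays had values between -0.40 and -0.12, and another, detected on 2 Tg-38 and 3 wild type arrays, had -0.28. The dimmest was detected on 3 wild type arrays and on 0 of 3 Tg-38 arrays, and by the lowest level among detected probes it was at least 1.16-fold lower in Tg-38. It had entered the test only through its detection in wild type, so no p-value is given for it.

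Ippk, which makes InsP6 from the pentakisphosphate, read 8.60, 8.48 and 8.30 in Tg-38 and 8.70, 8.72 and 8.77 in wild type. The wild type arrays were close together above the Tg-38 arrays, and the log2 fold change was -0.27 (SE 0.12, 95% interval -0.53 to -0.01, unadjusted p = 0.045, adjusted p = 0.283 by limma). With each array scaled to its median it was -0.44, against -0.14 over all probes tested. Ipmk, a kinase of several inositol phosphates, had 4 probes between -0.27 and -0.04. Itpk1 (-0.01) and Itpkc (0.04) were near 0.

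Among the tested DAG kinases of the set, which turn DAG into phosphatidic acid, the alpha isoform was above 0 and the epsilon and zeta isoforms were below it. Dgka read 12.40, 12.35 and 12.34 in Tg-38 and 12.14, 11.98 and 12.24 in wild type. The groups did not overlap, with a log2 fold change of 0.24 (SE 0.11, 95% interval -0.01 to 0.50, unadjusted p = 0.0548, adjusted p = 0.307 by limma), while the other probes of Dgka gave 0.15 and -0.01. Dgke, the epsilon isoform, read 7.76, 7.68 and 7.62 in Tg-38 and 7.83, 7.84 and 8.09 in wild type, with a log2 fold change of -0.23 (SE 0.12, adjusted p = 0.362 by limma). Like alpha, the zeta isoform Dgkz is known to restrain DAG signaling in T cells. It read 11.74, 11.71 and 11.26 in Tg-38 and 11.77, 11.66 and 11.69 in wild type. Tg-38 replicate 3 alone was low, and the log2 fold change of -0.14 (SE 0.15) was 0.02 without it. Outside the set, Dgkq had a log2 fold change of 0.25 without overlap, Dgki had 0.26 with overlap, and Agk had -0.06.

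The last pair supplies the lipid itself. Cds2 makes CDP-DAG and Cdipt joins it to inositol. Cds2 read 6.14, 6.39 and 6.13 in Tg-38 and 6.38, 6.32 and 6.66 in wild type, with overlap (log2 fold change -0.23, SE 0.13, adjusted p = 0.413 by limma). Cdipt read 11.49, 11.40 and 11.39 in Tg-38 and 11.28, 11.32 and 11.29 in wild type, a gap small in size but wider than the spread of the wild type arrays. Its log2 fold change was 0.13 (SE 0.10, 95% interval -0.10 to 0.36, adjusted p = 0.562 by limma). With each array scaled to its median it was -0.06, against -0.14 over all probes tested.

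**Figure D3:**
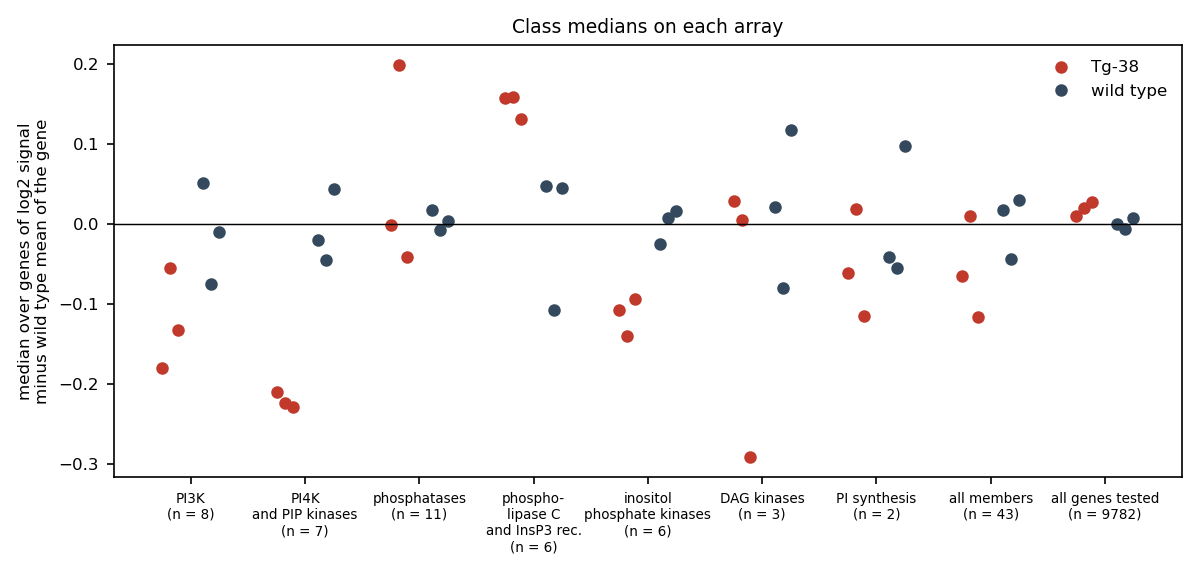
For each class (horizontal axis, with the number of genes), the median over its genes of the log2 signal minus the wild type mean of the gene, on each of the 3 Tg-38 arrays (red) and 3 wild type arrays (blue). The PI4K and PIP kinases are at -0.21 to -0.23 in Tg-38 and at -0.04 to 0.04 in wild type. The phospholipase C and InsP3 receptor class is at 0.13 to 0.16 in Tg-38 and at -0.11 to 0.05 in wild type. The 9782 genes tested stay near 0 on all arrays, which quantile normalization largely fixes in advance.

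Several members were read by more than 1 tested probe, which gives a second reading on the same 6 arrays but no further mice. Of 21 such members, 13 (61.9%) had all probes below 0, 3 (14.3%) had all above 0, and 5 (23.8%) were mixed. Over the 3787 genes with several tested probes, the shares were 34.2% all below, 26.2% all above and 39.6% mixed. Counting only probes detected on all 6 arrays, which favours neither group, 12 of 18 members (66.7%) had all below 0, against 35.8% of 3245 genes. The members with all probes below 0 were Pik3cg, Pik3r1, Pik3r2, Pi4ka, Pi4kb, Pi4k2b, Pip4k2b, Pip5k1a, Inpp4b, Itpr2, Itpkb, Ipmk and Dgkz, and those with all above were Inppl1, Plcb2 and Cdipt. The mixed members were Pik3cd, Inpp5a, Inpp5k, Mtmr3 and Dgka.

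**Figure D4:**
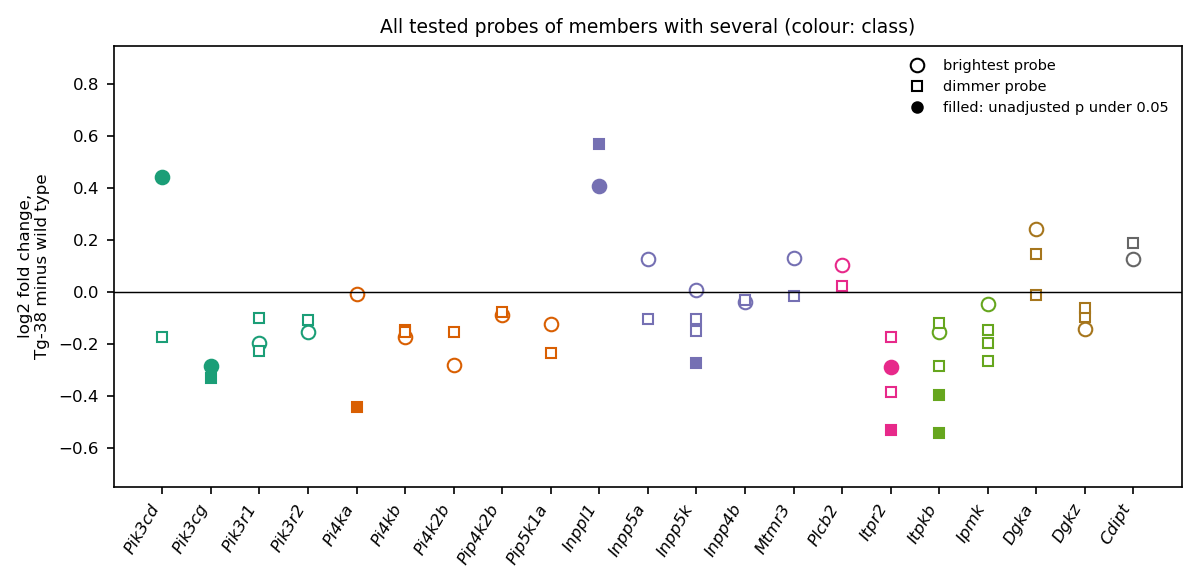
Log2 fold change (Tg-38 minus wild type) of every tested probe of the 21 members with more than 1, with the brightest probe as a circle, dimmer probes as squares, colours for the classes and filled symbols for an unadjusted p under 0.05. The probes of Itpr2, Itpkb and Ipmk lie below 0 (1 of Itpr2 and 2 of Itpkb were detected on fewer Tg-38 than wild type arrays), and the 2 probes of Pik3cd lie at 0.45 and -0.17.

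Some members gave no comparison. The probes of Pik3r5, Pip5k1c, Pikfyve, Mtm1, Mtmr6 and Plcb1 were detected on 0 of 6 arrays, those of Inpp4a on 1 array at most, and those of Inpp1 and Impa1 on 2. Their levels in these thymuses were thus not distinguished from the negative controls on most arrays. Pi4k2a, Itpr1, Dgkd and Impa2 were not analysed here.

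Other genes of the pathway were taken from lists of 102 genes around the members, of which 65 were tested. They had a median log2 fold change of -0.00. At an unadjusted p under 0.05 there were 4 higher (6.15%, against 10.6% of all genes tested) and 5 lower (7.69%, against 6.94%). Plekha1, which binds a bisphosphate lipid left when PIP3 is broken down, was the single gene of the lists to pass the adjusted threshold. It read 10.43, 10.07 and 10.46 in Tg-38 and 9.57, 9.58 and 9.45 in wild type, far apart, and rose by a log2 fold change of 0.79 (SE 0.13, adjusted p = 0.040 by limma).

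The lower ones at an unadjusted p included further kinase subunits and phosphatases. Pik3r3, the gamma regulatory subunit of PI3K, read 7.37, 7.19 and 7.45 in Tg-38 and 7.73, 7.89 and 7.91 in wild type (log2 fold change -0.51, adjusted p = 0.082 by limma). Pik3r4, the partner of Pik3c3, had -0.29, the inactive myotubularin Mtmr12 had -0.35, the inositol phosphate phosphatase Minpp1 had -0.35, and the calcium sensor Stim2 had -0.43. Above 0 were the downstream genes Sgk1, a kinase activated through PI3K, with 0.47 (adjusted p = 0.083 by limma), and Rasa3, a GTPase-activating protein that binds inositol phosphates, with 0.40. Cds1, the relative of Cds2 in the supply of the lipid, had 0.64, but its groups overlapped.

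Short promoter stretches are shown because Foxo factors are held back by PI3K signaling. The RefSeq promoter table (build GRCm38.p6, 250 bases before to 50 after each gene start) held 47 of the 56 members. On either strand, the Foxo motif GTAAACA was in 3 of them (6.38%), against 1095 of 27025 genes with a promoter in the table (4.05%). The motif of Myc, CACGTG, a palindrome, was in 6 of 47 (12.8%), against 8.09% of all. Both shares rest on few genes and describe letters only. Pik3cg, with lower values on both probes, had 1 Foxo match, starting at -92 from the gene start, and Pi4ka had 2, at -122 and -207. The Myc motif was in the promoters of 4 tested members, which were Dgka (at -17), Plcg2, Pip5k1a and Itpr3, and in 0 of the 10 promoters of members with an unadjusted p under 0.05. These 4 had values on both sides of 0. The motif is in capitals and each stretch reads along the minus strand, on which these genes lie.
Pik3cg, chr12:32208545-32208573: tttttcctaaaGTAAACAaatgatcctcc
Pi4ka, chr16:17406419-17406447: accaaaagatcGTAAACAaaatatttctt
Pi4ka, chr16:17406504-17406532: agcttccagagGTAAACAtcaggtgatcc
Dgka, chr10:128737613-128737640: tagttcggagtCACGTGtccgaagcgct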

How the data were processed

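RNA of 6 thymuses (3 Tg-38, 3 wild type) was read on 1 array each. The authors exported the scanner values with GenomeStudio, version not given in the sources used here. The deposited intensity of each probe is linear and not normalized between arrays, and the deposited detection p-value compares it with the negative controls of that array. A second deposited table of processed intensity values (column medians 1.91, 1.95 and 2.03 in Tg-38, and 1.73, 1.98 and 1.87 in wild type) is linear and background-subtracted. The method of its rescaling is unknown, and it served as an alternative.

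From the deposited intensities, log2 values were computed with neqc (offset 16, quantile normalization) in limma 3.58.1 under R 4.3.3. Probes detected at p under 0.05 on at least 3 of 6 arrays were kept (18352 of 45281), and lmFit and eBayes compared Tg-38 minus wild type, two-sided, with no block, residual degrees of freedom 4 and prior degrees of freedom 4.93. Benjamini-Hochberg adjustment ran over all probes kept, with a threshold of 0.05. A gene was taken by its brightest probe, and dimmer probes are given where they differ. Symbols came from the platform annotation, which pairs 34885 probes with 1 gene, 18 with more and leaves 10378 unnamed, and 52 of the 56 members were found there, all under the symbol given. A probe detected on no array of a group has only a bound there, set by the lowest detected level of each array.

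Described with every array were, in each class, the 3 members of lowest unadjusted p and the brightest, each further member with an unadjusted p under 0.05, each whose probes differed in sign with either at such a p, and each undetected in 1 group. Plcg2 and the dimmer probe of Pi4ka were added after their values were seen. The members, the pathway and marker lists and the tests were chosen with earlier results of these data known. The 3 arrays of a group are separate mice, and their number limits the precision. The limma p-values set a difference against the spread between these animals, moderated by the spread over all probes kept. An exact permutation test of 3 against 3 cannot go below 0.1. Alternatives were no background correction, median scaling, other filters, the processed values, an intensity trend, array weights, a replicate block, the mean of all probes, the methods' t-test and each array left out. The count of probes detected on all 6 arrays was added after seeing the data.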

Additional observations from a re-analysis of the deposited data

How the results depend on the processing

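The 202 probes past the adjusted threshold became 397 with no background correction, 48 with no detection filter, 445 with the authors' processed values, 481 with an intensity trend and 1 with the methods' t-test after Benjamini-Hochberg adjustment (2692 at an unadjusted p under 0.05), and ran from 20 to 273 with 1 array left out. The count of members past it, 0 in limma (11 at an unadjusted p under 0.05), was 2 with no background correction and with the intensity trend (Pik3cd and Pip4k2a), and 3 with the processed values (also Pip5k1b), and 0 to 0 with 1 array left out. Median scaling gave 1 member higher and 14 lower. Its class medians were -0.27 for PI3K, -0.36 for PI4K and PIP kinases, -0.0891 for phosphatases, -0.0304 for phospholipase C and InsP3 receptors, -0.28 for inositol phosphate kinases, -0.33 for DAG kinases, -0.19 for PI synthesis and -0.21 for all members, against -0.14 for all probes. The PI4K and PIP kinases had -0.12 with no detection filter and -0.22 with the mean of all probes, and the inositol phosphate kinases had -0.12 with array weights and -0.22 with the mean of all probes.

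With 1 array left out, members higher at an unadjusted p numbered 1 to 5 and members lower 3 to 7. There were 1 higher and 3 lower without wild type replicate 1, 2 and 4 without Tg-38 replicate 3, 2 higher without Tg-38 replicate 2, and 4 lower without wild type replicate 3. Over all 18352 probes, 2321 to 3497 had such a p with 1 array left out, against 3126 in the main fit. Class medians ran from -0.14 to -0.06 (PI3K), -0.22 to -0.14 (PI4K and PIP kinases), -0.02 to 0.08 (phosphatases), 0.0725 (without wild type replicate 2) to 0.19 (phospholipase C and InsP3 receptors), -0.15 to -0.0797 (inositol phosphate kinases), -0.23 to 0.017 (DAG kinases, the highest without Tg-38 replicate 3), -0.09 to -0.00 (PI synthesis) and -0.11 to 0.00794 (all members). The cause of these differences was not tested.

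The labels do not say whether the replicate numbers pair the mice. The deviations of arrays with the same number correlated at 0.03, -0.12 and -0.10, and those with different numbers at -0.12 to 0.19. No sign of pairing was thus seen, though such correlations cannot exclude it. With the replicate block 27 probes passed and 4 members were lower at an unadjusted p under 0.05, with 2771 of 18352 probes at such a p in both directions. Of 22 described members, 19 kept their sign in each alternative run, which was 16 for each but Synj1, whose probe was not kept when detection on all 6 arrays was required. The exceptions were Inpp5k, Dgkz (0.02 without Tg-38 replicate 3) and Cdipt (-0.06 with median scaling, where the median over all probes tested was -0.14). Signals near the negative controls, as for Plcd1, Itpka and Synj1, limit the precision of those members.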
